A study of Mus musculus with 30 samples.

Results

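The comparison of high with low plating density in F428D cells rests on 6 of the 30 libraries of the series, 3 at each density. They were chosen by the labels alone and not by any measured value. The cells are mouse embryonic fibroblasts (MEFs) from which Cry2 is missing. They stably express c-MYC and, in these groups, the clock protein CRY2 with the change F428D. Low density was 150 cells per well harvested on day 14, and high density was 500 cells per well harvested on day 11. All cells grew in 3% oxygen and 15% serum, and each biological replicate combined 2 wells. Density and day of harvest changed together, so their parts in any difference cannot be told apart. The other constructs, which show where F428D differed and add to the shared estimate of each gene's spread, were CRY2 in its wild-type form (WT), CRY2 with D325H or S510L, and a vector with no insert (EV), each at both densities with 3 libraries per group. All of these groups share the Cry2-null background and c-MYC, and whether each construct was introduced once or several times is not given in the sources used here.

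CRY2 belongs to the negative arm of the circadian clock and holds back the transcription factors CLOCK and BMAL1. Fibroblasts read crowding through several routes. In the Hippo pathway, cell contact and low tension keep the coactivators YAP and TAZ out of the nucleus, and TEAD-dependent genes such as Ccn2 are then transcribed less. Primary fibroblast cultures can also contain cells with a cartilage programme, driven by SOX9 with SOX5 and SOX6, whose products are the collagens and proteoglycans of cartilage matrix.

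The values are TPM, a transcript abundance, corrected for transcript length and scaled to a fixed sum per library. The reads behind each gene are unknown, so no counting error can be given. Differences below are in log2(TPM + 1), high minus low, with the standard error (SE). That scale understates the change of genes with low TPM. A gene was called at a Benjamini-Hochberg adjusted p under 0.05 from limma over 14093 tested genes. The p-values rest on 1 spread per gene within groups, shared over all 30 libraries, which may be in part technical. The table gives whole-culture values, in which fewer cells of a type and less RNA per cell cannot be told apart.

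Among the F428D libraries, low replicate 1 stood apart, with a mean correlation of 0.957 to the other low libraries across genes. The low group had a larger spread than any other group of the series, with a median SD of 0.266 per gene against 0.153 at high density. The shared estimate of spread can therefore be too small for the low group, and so can the SE and p-values. High replicate 2 had 15910 genes above 0, against 18936 to 19254 in the other 5. The fibroblast label was checked on its markers, of which 11 of 13 were at 1 TPM or more in every library of both groups, and their summed level ran from 10391 to 15474 TPM at low and from 10083 to 11838 TPM at high density. Summed macrophage markers stayed at 3.81 to 6.22 TPM over the 6 libraries. Endothelial markers summed to 8.30 to 11.3 TPM at low and 11.3 to 19.0 TPM at high density. Neural markers summed to 37.6 to 64.6 TPM at low and 26.7 to 50.0 TPM at high density. Epithelial markers had larger sums, of 213 to 417 TPM at low and 390 to 467 TPM at high density. Of the 12 epithelial markers, 2 were at 1 TPM or more in every low library and 2 in every high library. The sums therefore rest on few genes. Adipocyte markers summed to 90.5 to 124 TPM at low and 97.8 to 127 TPM at high density. The skeletal muscle sums were 26.4 to 35.7 TPM and 17.7 to 28.0 TPM. No marker of these lists was called, where 1.04% of all tested genes were. Few were tested: 1 of 14 macrophage, 2 of 11 endothelial, 5 of 12 epithelial and 7 of 14 neural markers. Tested too were 7 of 14 skeletal muscle, 9 of 12 adipocyte and 13 of 13 fibroblast markers.

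At high density 112 genes were lower and 35 were higher, together 1.04% of the genes tested. The lower genes were led by the cartilage matrix gene Acan and included Sox6, Col2a1 and the YAP target Ccn2, while the higher genes were mostly small ribosomal and respiratory chain genes and a group of liver transcripts. Library values were apart between the densities for all 112 lower genes and for 34 of the 35 higher genes, beside 13.2% of all tested genes apart downwards and 3.94% upwards. The median difference over all tested genes was -0.11, and 66.7% of genes lay below 0. Of the 147 called genes, 27 belonged to one of 41 gene lists and 120 to none. Among the lists, 8 held a called gene and 33 held none.

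The number of calls rested on single libraries and on scaling. It was 18 without low replicate 1, 32 without low replicate 2 and 1642 without low replicate 3. It was 43 without high replicate 1, 23 without high replicate 2 and 17 without high replicate 3. Without low replicates 1, 2 and 3 in turn, hepatocyte markers were 10 of 10, 8 of 11 and 12 of 262 genes called higher. Without high replicates 1, 2 and 3 in turn, they were 10 of 16, 11 of 14 and 8 of 10. With the spread estimated from the 6 F428D libraries alone no gene was called, and 1284 had an unadjusted p under 0.05 in limma. The higher genes were 23.8% of the calls, but 62.7% of 51 calls under quantile normalization and 59.7% of 67 under median-ratio scaling, which move the median of all genes from -0.11 to -0.00087 and -0.021. Hepatocyte markers were 12 of the 32 higher calls under quantile normalization and 11 of 40 under median-ratio scaling. Of the 147 calls, 137 were lost on leaving out at least 1 library, those of the cartilage, YAP target, ribosomal and respiratory genes included. The 10 others were Lrrc8a and Pla2g4a, lower at high density, and 8 liver transcripts, higher at high density. These 8 passed the filter of 1 TPM in 3 libraries only through the high density libraries of F428D and S510L. That their calls were kept is therefore a description and no sign of a firm response to density.

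**Figure D1:**
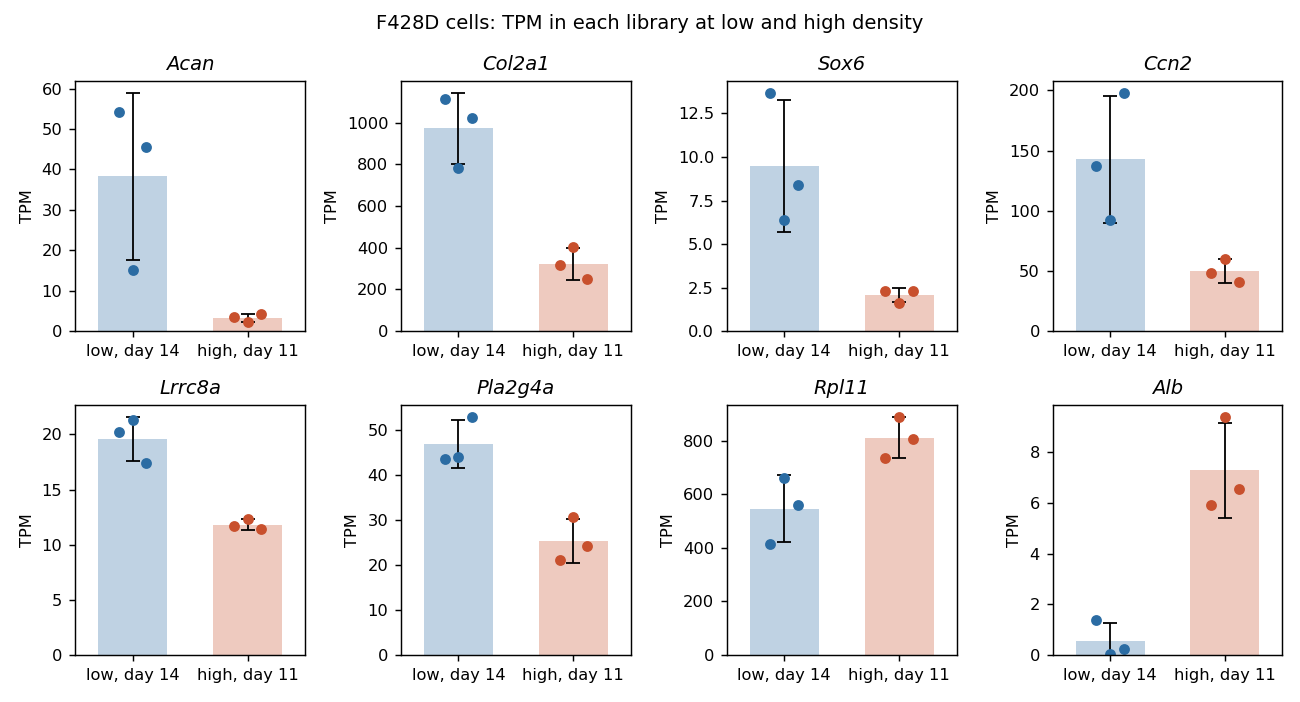
TPM of 8 genes (vertical axis, from 0) in F428D cells at low density on day 14 (blue) and high density on day 11 (red). Points are the 3 libraries, bars the mean and whiskers the SD. Acan falls from a mean of 38.3 to 3.30 TPM, while Rpl11 and Alb are higher at high density, and the points of the 2 densities do not overlap in any panel.

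The cartilage and skeletal list had the lowest median difference of the lists. Acan encodes aggrecan, the main proteoglycan of cartilage. It lies on chr7:79053483-79115099, plus strand (GRCm38, GENCODE M21), and 300 bases around its RefSeq start are shown because its fall was the largest of all called genes. The sequence is from RefSeq (GRCm38.p6, chr7:79052976-79053275), with 250 bases before and 50 after the RefSeq start, which lies upstream of the GENCODE start. Capitals mark the one match to the TEAD-type motif GGAATG or its reverse complement CATTCC, 12 bases before the RefSeq start.
Acan: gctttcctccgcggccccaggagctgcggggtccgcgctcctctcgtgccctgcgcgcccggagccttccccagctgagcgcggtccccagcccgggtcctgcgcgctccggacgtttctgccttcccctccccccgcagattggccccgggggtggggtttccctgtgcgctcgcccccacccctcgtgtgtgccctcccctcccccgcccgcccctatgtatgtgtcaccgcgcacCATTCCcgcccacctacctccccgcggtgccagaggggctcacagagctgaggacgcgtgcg
The SOX-type core ACAAT and the E-box CACGTG, searched on both strands, do not occur in this window. Of 32851 RefSeq promoters of the same length, 14.7% hold the first motif, 31.02% the second and 7.15% the third. A match is a description of letters only.

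Acan stood at 54.3, 15.1 and 45.6 TPM in the 3 low libraries and at 3.46, 2.19 and 4.26 TPM in the 3 high libraries. Every high library was below every low one. The fitted difference was -3.04 (SE 0.71, adjusted p = 0.0425, limma). Col2a1, the main fibrillar collagen of cartilage (chr15:97975602-98004695, minus strand), was far more abundant, at 1112, 783 and 1021 TPM against 317, 402 and 249 TPM. It fell by 1.60 (SE 0.32, adjusted p = 0.022, limma). Sox6, a transcription factor that works with SOX9 (chr7:115470872-116038796, minus strand), was at 13.7, 6.36 and 8.37 TPM against 2.29, 1.61 and 2.28 TPM. Its fall was 1.72 (SE 0.33, adjusted p = 0.0201, limma). Runx2, a regulator of bone formation and late cartilage, fell by 0.51 from 23.2 ± 3.25 to 15.9 ± 0.649 TPM (SD, n = 3 each; limma adjusted p = 0.0351).

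These 4 were the called genes among 24 tested members of the cartilage and skeletal list, where 0.795% of all tested genes were called lower. No member was called higher. The list had 22 members below 0 and a median difference of -1.41, beside -0.11 for all genes. Sox9 itself was at 190, 120 and 98.9 TPM at low and 60.8, 63.1 and 61.3 TPM at high density, a separation that missed the threshold (-1.08, SE 0.29, limma adjusted p = 0.0688). Col11a1 was similar at -1.42 (limma adjusted p = 0.0803). Cnmd, which encodes chondromodulin, had a difference nearly as large as that of Acan (-2.95) but an SE of 1.09. Its low libraries held 164, 18.7 and 27.8 TPM, so low replicate 1 alone set most of the mean. The same library was the highest of the 6 for Col9a1, at 48.5 TPM against 2.65 and 8.67 TPM in the other low libraries. It was also the highest for Acan, Col2a1, Sox6, Sox9, Comp and Matn1, while for Runx2 low replicate 2 was, at 26.9 TPM. High replicate 2 was the lowest for Cnmd and Col9a1, with Cnmd listed at 0. Of the genes of late cartilage and bone, Col10a1 was at -0.51, Alpl at 0.01 and Spp1 at 0.20, none of them called. Without low replicate 1 the list median was -0.95 and no member was called. Without high replicate 3 the median was -1.45, again with no call. With array weights, a weight for each library, the median was -0.60 and 8 members were called lower.

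The list's own high minus low medians in the other constructs were -2.24 in EV, -1.46 in D325H, -1.24 in S510L and -0.09 in WT. These contrasts use no F428D library. The difference between F428D and the mean of the other 4 constructs was -0.92 for Acan (SE 0.79) and -0.03 for Col2a1 (SE 0.36), and neither was called. For Sox6 the F428D fall exceeded that of WT by 1.64, with a limma adjusted p of 1. At low density Acan averaged 38.3 ± 20.6 TPM in F428D, against 8.39 ± 6.09 in WT, 87.6 ± 46.7 in EV and 346 ± 139 in S510L (SD, n = 3 each). At high density it averaged 3.30 ± 1.04 TPM in F428D and 3.77 ± 1.82 TPM in WT (SD, n = 3 each).

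**Figure D2:**
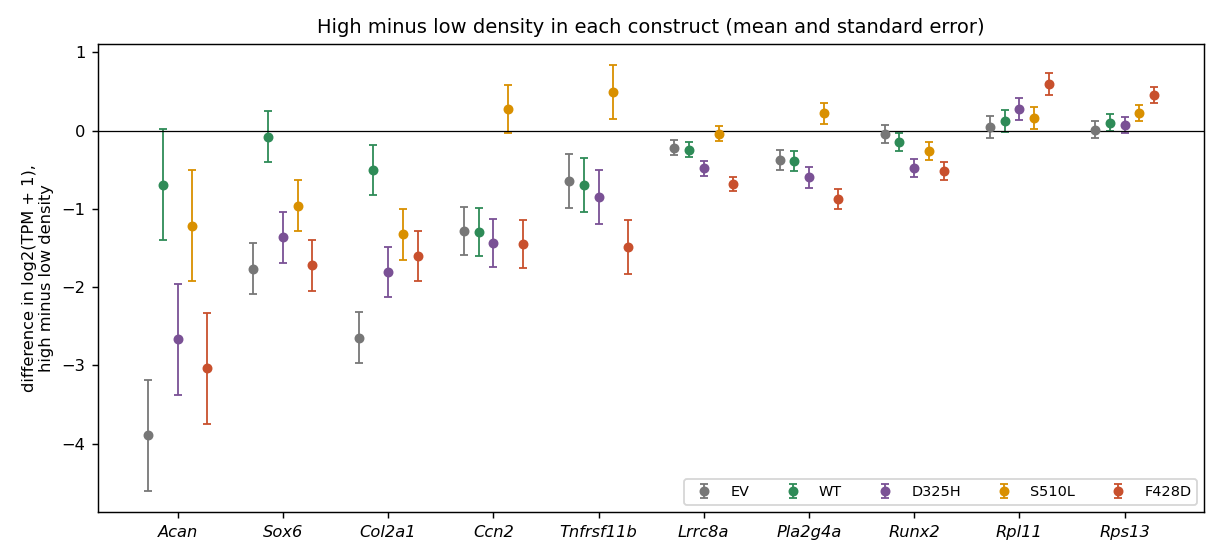
Fitted difference in log2(TPM + 1), high minus low density (vertical axis), for 10 genes in the 5 constructs, with whiskers for the SE. F428D (red) lies below 0 for the first 8 genes and above 0 for Rpl11 and Rps13, and for Acan, Sox6 and Col2a1 its values lie within the range of the other constructs.

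Of the targets of YAP and TEAD, Ccn2 and Amotl1 were called lower. Ccn2 encodes a secreted matricellular protein and is a standard readout of YAP (chr10:24595442-24598683, plus strand). It was at 138, 92.4 and 198 TPM at low density and at 48.6, 60.3 and 40.5 TPM at high density. The groups were separate, and the fall was 1.45 (SE 0.31, adjusted p = 0.0287, limma). Amotl1, an angiomotin that binds YAP, fell by 0.49 from 22.6, 23.5 and 17.3 TPM to 14.7 TPM in each high library (limma adjusted p = 0.0458). These were the 2 called of 19 tested members, beside 0.795% of all tested genes called lower. All 19 lay below 0, with a median of -0.49, where 66.7% of all tested genes lay below 0. For 10 the libraries did not overlap, beside 13.2% of all tested genes apart downwards. Crim1 (-0.67), Axl (-0.50) and Ptpn14 (-0.47) were separate and not called. Ccn1, the close relative of Ccn2, overlapped between densities at 286, 394 and 430 TPM against 299, 276 and 203 TPM. Lats1, the kinase that phosphorylates YAP, is outside the list and was named after its value was seen: it fell by 0.54 (limma adjusted p = 0.0324). Under quantile normalization and median-ratio scaling no YAP target was called and 18 of the 19 lay below 0. None was called without low replicate 1 or without any 1 of the high libraries. After each library's trend on transcript length was subtracted none was called, 17 lay below 0 and the median was -0.27. Without that subtraction, the list medians in EV, WT, D325H and S510L were -0.20, -0.23, -0.53 and -0.30.

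Of the 19 genes, 14 had a promoter in the RefSeq table, 15 promoters in all, and 7 of these held GGAATG or CATTCC. Stretches of 60 bases around the match are shown for 5 of the 7 genes, none of them called, with the motif in capitals. They come from chr3:145650056-145650115 (minus), chr9:102717712-102717771 (plus), chr1:189728095-189728154 (plus), chr17:78200142-78200201 (plus) and chr7:25788924-25788983 (minus), RefSeq on GRCm38.p6.
Ccn1: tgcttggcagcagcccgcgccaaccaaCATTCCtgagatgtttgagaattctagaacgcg
Amotl2: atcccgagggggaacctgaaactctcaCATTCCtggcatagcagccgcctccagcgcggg
Ptpn14: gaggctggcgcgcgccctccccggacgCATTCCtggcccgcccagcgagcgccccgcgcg
Crim1: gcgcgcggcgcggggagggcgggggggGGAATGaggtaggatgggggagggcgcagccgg
Axl: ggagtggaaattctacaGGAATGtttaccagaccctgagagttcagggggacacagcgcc
The match lay 103 bases before the RefSeq start in Ccn1, 65 in Amotl2, 146 in Ptpn14, 79 in Crim1 and 233 in Axl. The 15 list promoters held the motif in 46.7% of cases, the 122 promoters of genes called lower in 9.02%, and all promoters in 14.7%. The promoter of Amotl1 in the table, 1 of the 2 called members, had no match. No test was made of these shares.

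**Figure D3:**
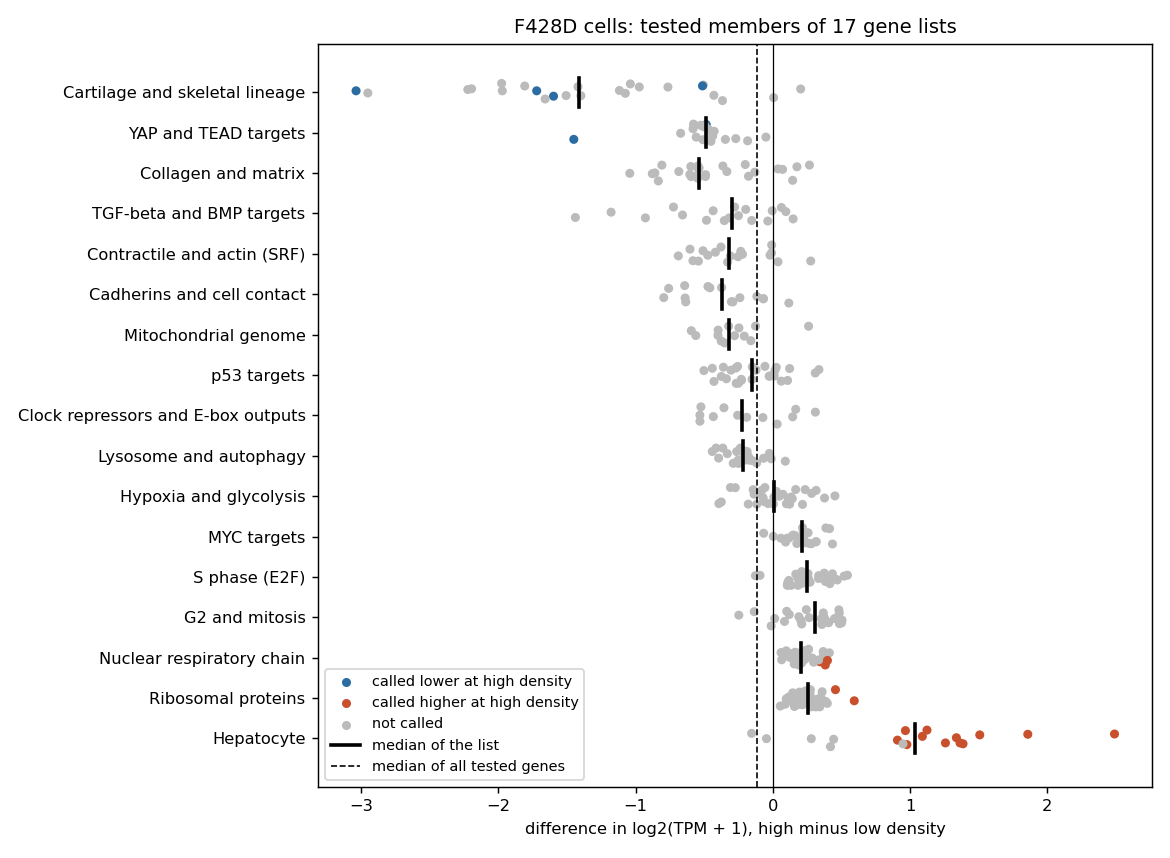
Difference in log2(TPM + 1), high minus low density (horizontal axis), of each tested member of 17 gene lists in F428D cells. Blue and red points were called lower and higher, grey points were not called, black bars are list medians and the dashed line is the median of all tested genes. The cartilage list has a median of -1.41, while all 47 ribosomal protein genes lie above 0.

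Of the 112 lower genes, 2 kept their call when any 1 of the 6 F428D libraries was left out, Lrrc8a and Pla2g4a, and neither belongs to a list. Lrrc8a encodes the subunit that every volume-regulated anion channel needs, and lies on chr2:30237715-30263790 (plus strand). It was at 20.2, 21.3 and 17.4 TPM at low density and at 11.7, 12.4 and 11.4 TPM at high density, with narrow groups that do not overlap. It fell by 0.68 (SE 0.09, adjusted p = 0.00054, limma), the smallest adjusted p of any gene lower at high density. Its own density difference was -0.22 in EV, -0.25 in WT, -0.48 in D325H and -0.04 in S510L. Of these the D325H fall was also called (limma adjusted p = 0.0117). The promoter of Lrrc8a is shown because its call was the firmest of the lower genes (RefSeq, GRCm38.p6, chr2:30237519-30237818, plus strand, E-box in capitals).
Lrrc8a: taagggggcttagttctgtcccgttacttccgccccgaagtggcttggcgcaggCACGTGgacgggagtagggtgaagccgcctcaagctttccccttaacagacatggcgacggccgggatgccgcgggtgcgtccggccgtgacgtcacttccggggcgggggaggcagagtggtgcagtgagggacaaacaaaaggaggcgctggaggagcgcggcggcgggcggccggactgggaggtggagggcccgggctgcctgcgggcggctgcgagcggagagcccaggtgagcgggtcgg
The E-box CACGTG, the sequence bound by CLOCK with BMAL1 and by MYC with MAX, begins 196 bases before the RefSeq start. It was present in 5.74% of the promoters of genes called lower and in 7.15% of all promoters. Among the partners of Lrrc8a, Lrrc8c fell by 0.87 from 20.4, 23.7 and 20.9 TPM to 10.1, 15.8 and 9.15 TPM (limma adjusted p = 0.0324). Lrrc8b (-0.28), Lrrc8d (0.10) and Lrrc8e (-0.37) were not called.

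Pla2g4a encodes the cytosolic phospholipase that releases arachidonic acid, the precursor of prostaglandins (chr1:149829618-149961290, minus strand). It was at 43.6, 44.0 and 52.9 TPM at low density and at 21.2, 30.6 and 24.1 TPM at high density. It fell by 0.87 (SE 0.13, adjusted p = 0.0015, limma). Its own density difference was -0.37 in EV, -0.39 in WT, -0.60 in D325H and 0.22 in S510L. Of these the D325H fall was also called (limma adjusted p = 0.019). Ptgs2, the next enzyme of the prostaglandin route, was at 20.9, 52.7 and 81.8 TPM against 12.0, 28.3 and 13.8 TPM, an overlap, and was not called (-1.37, limma adjusted p = 0.0985). For Lrrc8a the excess of the F428D fall over the mean of the other constructs was -0.44 (SE 0.11) and for Pla2g4a -0.59 (SE 0.15). Neither passed in that comparison, with limma adjusted p of 0.505 and 0.584.

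Further called falls were of genes with varied roles, and each of these calls was lost on leaving out at least 1 library. Tnfrsf11b, the decoy receptor that limits osteoclast formation, went from 54.9, 35.0 and 25.0 TPM to 12.5, 12.5 and 12.2 TPM and fell by 1.48 (limma adjusted p = 0.0406). Smoc2, a secreted calcium-binding matrix protein, fell by 1.37, and Cyp26b1, which breaks down retinoic acid, by 1.21. Notch2, the receptor, fell by 0.84 as the 1 called of 6 tested Notch genes, beside 0.795% of all tested genes called lower. Syne2, a giant protein of the nuclear envelope, fell by 1.11, and Utrn, the paralogue of dystrophin, by 0.86. Receptors and regulators of growth factor signalling were also among the calls and were named after their values were seen: Igf1r (-0.76), the BMP receptor genes Bmpr2 (-0.69) and Acvr1 (-0.47), Fstl3 (-0.66), which binds activin, and Furin (-0.58), the protease that matures many growth factors. Of 18 immediate targets of TGF-beta and BMP 0 were called in either direction, where 1.04% of all tested genes were. At an unadjusted p under 0.05 in limma 6 were lower, beside 2074 of all 14093 tested genes. The nearest was Pmepa1, at 33.4, 44.0 and 106 TPM against 20.1, 25.7 and 13.7 TPM (-1.44, limma adjusted p = 0.0579).

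General matrix, contractile and cell contact genes held no call either, where 1.04% of all tested genes were called. Of 26 tested collagen and matrix genes none was called, 21 lay below 0 and the median was -0.54. That median was -0.29 without low replicate 1, -0.31 with array weights and -0.27 after the length trend was subtracted. At an unadjusted p under 0.05 in limma 8 of the 26 were lower, beside 2074 of all 14093 tested genes. For 8 the libraries were apart downwards, beside 13.2% of all tested genes. Fn1, fibronectin, was at 3892, 2463 and 2014 TPM against 1604, 1404 and 1593 TPM (-0.81, limma adjusted p = 0.0803). Thbs1 was at 1017, 538 and 444 TPM against 395, 297 and 236 TPM (-1.04, limma adjusted p = 0.0926). For both genes low replicate 1 was the highest and the groups were separate. Of 18 contractile and actin genes none was called and 16 lay below 0, with Myh9, non-muscle myosin, nearest at -0.60. Of these 18, 6 were lower at an unadjusted p under 0.05 in limma. Of 15 cadherin and cell contact genes none was called, with a median of -0.37, and 4 were lower at an unadjusted p under 0.05 in limma.

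On the other side, a few small genes of the ribosome and the respiratory chain were called higher at high density. Rpl11 encodes a protein of the large ribosomal subunit that also binds MDM2. It was at 414, 661 and 562 TPM at low and 736, 890 and 807 TPM at high density, and rose by 0.59 (SE 0.14, adjusted p = 0.0444, limma). Rps13, of the small subunit, was at 701, 872 and 951 TPM against 1064, 1232 and 1147 TPM and rose by 0.46 (limma adjusted p = 0.0431). Rpl22 rose by 0.32 from 1160 ± 43.9 to 1448 ± 109 TPM (SD, n = 3 each; limma adjusted p = 0.0393). These 3 were called among 47 ribosomal protein genes, where 0.248% of all tested genes were called higher. All 47 lay above 0, with a median of 0.26, where 66.7% of all tested genes lay below 0. For 26 the libraries did not overlap, beside 3.94% of all tested genes apart upwards. Rpl31, Rpl37a and Rpl39, outside the list and named after their values were seen, rose by 0.38, 0.34 and 0.40 (limma adjusted p = 0.032, 0.0487 and 0.0406). Without low replicate 1 no gene of the list was called, 44 of 47 lay above 0 and the median was 0.15, and under quantile normalization none was called, 45 lay above 0 and the median was 0.16. No member was called without high replicate 2 or 3, or after the length trend was subtracted. In EV, WT, D325H and S510L the list medians were 0.05, 0.09, 0.21 and 0.07.

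Nuclear genes of the respiratory chain gave a like picture. Ndufv2 and Ndufb8, subunits of complex I, rose by 0.34 and 0.38, and Cox6c, of cytochrome oxidase, by 0.40. They were the 3 called of 32 tested, beside 0.248% of all tested genes called higher. All 32 lay above 0, and the median was 0.20. None was called without low replicate 1, low replicate 2, high replicate 2 or high replicate 3, nor after the length trend was subtracted. Without that subtraction, the list medians in EV, WT, D325H and S510L were 0.03, 0.02, 0.23 and 0.01. Atpif1, the inhibitor of ATP synthase, is outside the list and went from 588, 620 and 655 TPM to 874, 787 and 873 TPM, a rise of 0.44 (limma adjusted p = 0.0324). Atp5k and Atp5l, small subunits of ATP synthase, rose by 0.46 and 0.40. The 13 protein genes of the mitochondrial genome did not share this: 12 lay below 0, with a median of -0.32, and none was called. Without high replicate 3 the median was -0.026 and 7 of 13 lay below 0. That library held mt-Co3 at 843 TPM against 2027 and 2592 TPM in the other high libraries and 1899.8 to 2855 TPM at low density.

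Transcript length moved with both directions of the comparison. The genes called higher had a median transcript of 861 nt, and 34 of 35 were shorter than the 2809 nt median of all tested genes. Those called lower had a median of 5527 nt, and 5 of 111 with a known length were shorter than that median. Over 5 equal bins of genes by length, the median difference went from 0.04 through -0.01, -0.10 and -0.17 to -0.29 from the shortest to the longest. The other constructs had a trend of the same direction. The medians of the shortest and longest bins were 0.10 and -0.25 in D325H and 0.03 and -0.16 in WT. They were 0.02 and -0.10 in EV and likewise 0.02 and -0.10 in S510L. Within libraries, the slope of log2(TPM + 1) on log2 length, relative to the mean of all libraries, was 0.062, 0.022 and -0.049 at low density and -0.058, -0.055 and -0.065 at high density. Low replicate 1 had the most positive slope of the 6. When each library's trend on length was subtracted, an alternative chosen after seeing the data, 18 genes were called, 14 higher and 4 lower. Of the 14 called higher, 11 were hepatocyte markers, which are described below and not counted as a response to density. Lrrc8a (-0.50, limma adjusted p = 0.00245) and Pla2g4a (-0.77, limma adjusted p = 0.0105) were among the 4 called lower. Acan, Col2a1, Sox6, Ccn2, Rpl11 and Rps13 were not called. The differences were then -2.74 for Acan, -1.38 for Col2a1, -1.37 for Ccn2 and 0.54 for Rpl11. Whether length, RNA quality or the library preparation has a part in the result was not tested.

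**Figure D4:**
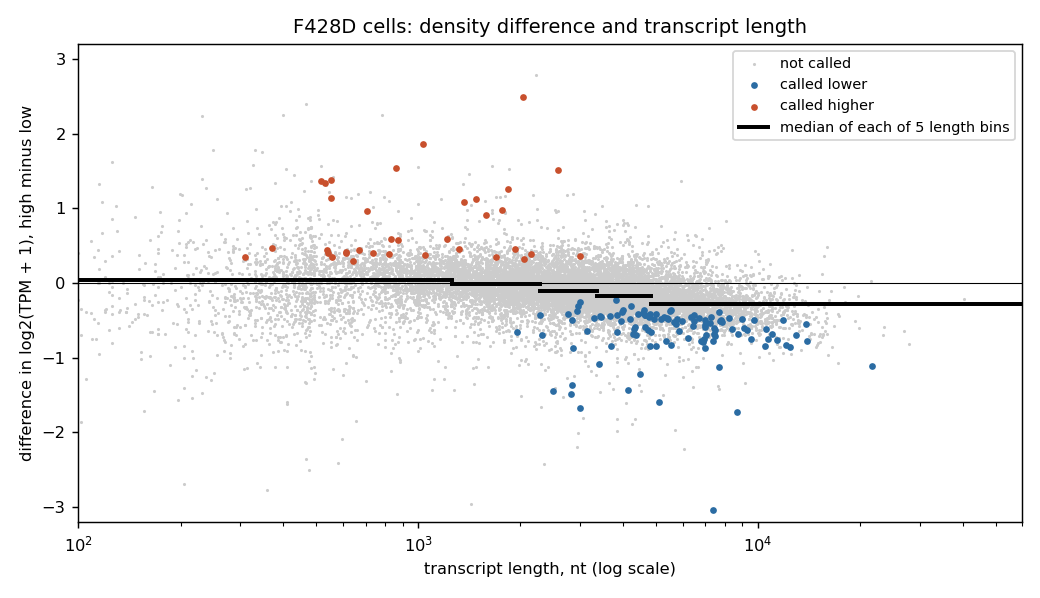
Difference in log2(TPM + 1), high minus low density (vertical axis), against transcript length in nt (log scale) for 13862 tested genes of F428D cells, with 23 further genes outside the axes. Called higher genes (red) lie mostly to the left and called lower genes (blue) to the right, and the black medians of the 5 length bins step from 0.04 to -0.29.

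Liver transcripts were the strongest of the higher genes by adjusted p. Alb, serum albumin, was at 1.38, 0.0371 and 0.241 TPM at low density and 5.91, 9.41 and 6.55 TPM at high density, a difference of 2.49 (SE 0.27, adjusted p = 1.63e-05, limma). Fabp1, the liver fatty acid binding protein, was listed at 0 in the 3 low libraries and at 1.57, 1.58 and 1.69 TPM in the high ones. Apoa1, the main protein of high-density lipoprotein, was listed at 0, 0.0747 and 0 TPM against 2.81, 2.69 and 2.64 TPM. Of 36 hepatocyte markers with values, 18 passed the filter on low values. Some, Alb included, did so only through the high density libraries of F428D and S510L. Of the 18, 12 were called higher. This count and the p-value of Alb are given as a description. Hba-a2, a globin chain of red cells, was listed at 0 at low density and at 0.913, 1.38 and 1.33 TPM at high density.

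The same transcripts were present in another construct. In S510L at high density Alb ran from 6.14 to 8.87 TPM and Fabp1 from 1.53 to 1.74 TPM. For 17 of the 36 hepatocyte markers in the table each of the 6 libraries of S510L and F428D at high density was above each of the other 24, whose highest values were 1.38 TPM for Alb and 0.139 TPM for Fabp1. These 6 are the last 6 columns of the table. Leaving out 3 markers that pass 10 TPM elsewhere, the summed markers came to 36.4 to 51.3 TPM in the 6 libraries and 4.06 to 11.3 TPM in the 24. The liver transcripts were therefore not counted as a response of F428D cells to density, and their source was not tested. With Hba-a2 and Mup22, a major urinary protein made by liver and named after its value was seen, they make up 14 of the 35 higher calls. When each library was rescaled without the hepatocyte and mitochondrial genes, 36 genes were called higher and 125 lower.

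**Figure D5:**
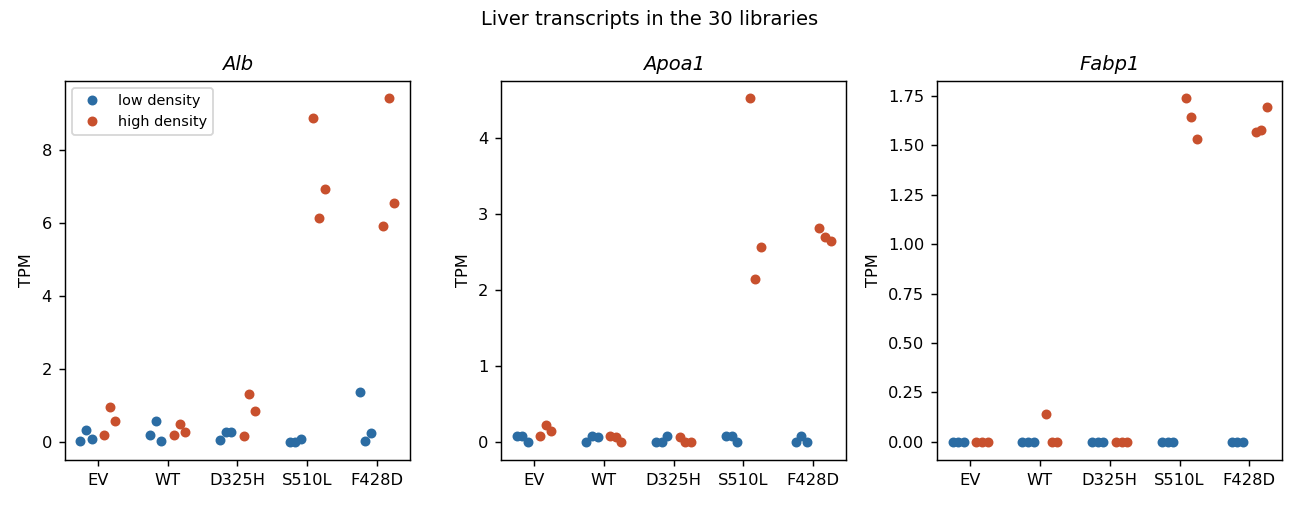
TPM of Alb, Apoa1 and Fabp1 (vertical axes) in the 30 libraries by construct, with low density in blue and high density in red and 1 point per library. The 3 S510L and 3 F428D libraries at high density lie above all others, which stay at or below 1.38 TPM for Alb.

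Against the mean density effect of the other 4 constructs, 2 genes were called, 0.0142% of those tested: Apoa1 and Fabp1, both higher in F428D. Against the WT effect, 5 were called, 0.0355%: Alb, Apoa1, Fabp1, Ahsg and Serpina1b. Apart from Alb, these reached 1 TPM only in S510L and F428D libraries at high density. Alb reached it elsewhere only in F428D low replicate 1 (1.38 TPM) and D325H high replicate 2 (1.30 TPM). The filter on low values asks for 3 libraries. All 5 genes therefore passed it only through the S510L and F428D libraries at high density, and these calls are given as a description. At an unadjusted p under 0.05 the counts were 773 and 495 genes. No cartilage, YAP, ribosomal or respiratory gene passed either test. Within constructs, limma called 579 genes between densities in D325H (4.11%), 146 in S510L (1.04%), 11 in EV (0.0781%) and none in WT, where 673 had an unadjusted p under 0.05. Of the 112 genes lower in F428D, 61 were also called lower in D325H, out of 447 there, 7 in S510L, out of 110, and 7 in EV, out of 11, in fits that share the estimate of each gene's spread. For 91 of the 112 the F428D difference was the most negative of the 5 constructs, a comparison in which F428D alone was chosen for its size.

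Of the genes on the p53 target, clock and cell cycle lists, Clock was the only one called. Trp53 was at 214, 278 and 326 TPM against 293, 253 and 270 TPM, with overlap. Cdkn1a, the cell cycle inhibitor induced by p53, was at 614, 615 and 534 TPM against 479, 504 and 490 TPM, separate but not called (-0.26, limma adjusted p = 0.844). Mdm2 differed by -0.23 with an SE of 0.31. Of 28 tested p53 targets 0 were called, where 1.04% of all tested genes were. At an unadjusted p under 0.05 in limma 3 were lower, and the median was -0.15. Whether the introduced CRY2 is counted under Cry2 is not given in the sources used here, but Cry2 was higher in every group with an introduced CRY2 than in EV. At low density it averaged 4.6 TPM in EV, 75.5 in WT, 116 in D325H, 20.7 in S510L and 104 in F428D. At high density the means were 4.4, 72.3, 111, 27.6 and 72.2 TPM in the same order. Cry2 was at 88.2, 99.6 and 125 TPM against 81.5, 58.5 and 76.7 TPM, separate but not called (-0.52, limma adjusted p = 0.422). Myc was at 20.8, 33.0 and 45.5 TPM against 58.8, 35.1 and 26.6 TPM, with overlap. Clock was the 1 clock gene called among 18 tested, beside 1.04% of all tested genes. It fell by 0.50 from 9.35, 11.0 and 8.62 TPM to 6.30, 6.46 and 6.79 TPM (limma adjusted p = 0.0444). Nr1d2, a clock repressor, was separate and not called (-0.53, limma adjusted p = 0.124), and Per1, Per2 and Dbp overlapped.

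Proliferation genes depended on 1 library. Of 30 S phase genes 28 lay above 0, of 24 G2 and mitosis genes 21, and of 24 MYC targets 23, with medians of 0.25, 0.31 and 0.21 and no gene called. Low replicate 1 was the lowest of the 6 libraries for every one of these 30, 24 and 24 genes. Pcna, the sliding clamp of replication forks, stood at 74.4 TPM there against 155 and 185 TPM in the other low libraries and 159, 176 and 168 TPM at high density. Without that library the counts above 0 were 6 of 30, 2 of 24 and 8 of 24, with medians of -0.16, -0.15 and -0.08.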

How the data were processed

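Single-end reads of 50 nt from a BGISEQ-500 had a stated depth of 20 M per library, per the labels' protocols. The authors deposited 1 table of TPM for 34724 gene symbols in 30 libraries. The values come from kallisto with the assembly GRCh37.p13, per the submitters' processing notes, although 34102 symbols are those of mouse GENCODE M21, from which places and transcript lengths (longest coding transcript) were taken. TPM carries no read depth, and reads that match several near-identical genes are divided by estimation, which makes the Serpina1 and ribosomal protein genes less certain.

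The 14093 genes that reached 1 TPM in 3 or more libraries were fitted as log2(TPM + 1) with 1 mean for each of the 10 groups in limma 3.58.1 (R 4.3.3), with a variance trend. Adjusted p values are Benjamini-Hochberg over all tested genes, called under 0.05. The fit was run on simulated data with independent noise of the same spread in every group. These held no outlying library and no trend on length, so they cannot show how the fit behaves with either. Groups of 3 against 3 allow no exact permutation p under 0.1. Named genes are a fixed set, the 15 largest called differences each way without overlap (mean log2 of at least 2), and the 4 smallest p of each list, with exceptions said. The genes and lists were chosen with earlier results of these data known. Alternatives were other pseudocounts (0.1 and 5), filters, scalings, weights, a replicate block, fewer samples and, added later, a length correction.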

Additional observations from a re-analysis of the deposited data

Results flagged for a closer look

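The density effect in F428D cells was tested against that in the other constructs, and the genes that differed were all liver transcripts, present in every library of F428D and of S510L at high density. Apoa1 was 1.35 higher in log2(TPM + 1) than the mean effect of the other 4 constructs and 1.86 higher than the WT effect. Fabp1 was 1.02 and 1.32 higher. Against WT alone Alb was 2.42 higher, Ahsg 1.12 and Serpina1b 0.98. Each was higher in 3 of 3 high density libraries of F428D than in its 3 low density libraries. These genes, Alb included, passed the filter on low values only through the S510L and F428D libraries at high density, so the differences are a description. The source of these transcripts was not tested.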

How the results depend on the processing

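The count of 147 genes called between densities was 151 with a pseudocount of 0.1, 156 with no filter, 178 with mean TPM of at least 5, 161 after rescaling and 195 with the replicate block. It was 97 with a pseudocount of 5, 51 under quantile normalization (62.7% higher, against 23.8%), 67 under median-ratio scaling (59.7% higher), 68 with no variance trend, 18 after the length trend was subtracted and 3806 with array weights. It was 0 when only the 6 F428D libraries were fitted, where 1284 genes had an unadjusted p under 0.05 in limma. Leaving out 1 library gave 17 to 1642. Deviations from the group mean correlated at 0.06, 0.23 and -0.09 for same-numbered replicates and at -0.19 to 0.16 for the other pairs. With 3 libraries per group, this cannot settle whether replicate numbers pair the samples. The replicate block gave 2 and 4 calls for the difference from the other constructs and from WT. The 2 calls for the former were 0 with a pseudocount of 0.1 or mean TPM of at least 5, 28 with no filter, 4 under quantile normalization, 574 with array weights, 7 with no variance trend and 2 to 3 leaving out 1 library. The 5 for the latter were 1 with a pseudocount of 0.1 and with the groups compared alone, 0 with mean TPM of at least 5, 25 with no filter, 30 with array weights, 8 with no variance trend and 2 to 6 leaving out 1 library. The causes were not tested.

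Among single genes, none that was called turned its sign. Of uncalled genes, Per2 turned to 0.034 under quantile normalization, 0.0049 under median-ratio scaling and 0.18 after the length trend was subtracted, and Apaf1 to 0.011 after the latter. With array weights Cry1 turned to -0.36, Dbp to 0.23, S100b to 0.058 and Trp53 to -0.012. Leaving out 1 library, differences ran from -0.15 to 0.15 for Trp53, -0.043 to 0.52 for Myc, -0.016 to 0.66 for Cdkn2a, -0.092 to 0.48 for Cry1, -0.54 to 0.0048 for Per1, -0.18 to 0.031 for Per2 and -0.36 to 0.12 for Dbp. Depth is unknown for TPM, so limits from depth cannot be given.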
